A study of Arabidopsis thaliana with 6 samples.

Results

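The loci described here carry names of Arabidopsis gene annotation on chromosomes 3, 4 and 5, and most of them are noncoding. They were taken from the probe names on the array, as every probe name beginning with AT3G, AT4G or AT5G, leaving out 16 loci such as RDR2, DCL3 and the cold-inducible KIN1. This gave 184 of the 200 such loci, out of 5080 names on the array, represented by 644 probes. In RefSeq (assembly TAIR10.1), 181 of the 184 were found: 83 lncRNAs, 64 ncRNAs, 1 antisense RNA, 3 miRNA genes and 30 protein-coding genes. The label of the group as mostly noncoding therefore matched the annotation, with 148 loci of noncoding type besides the miRNA genes. Since RDR2 itself is among the loci left out, its level enters no count below.

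RNA was measured in inflorescences with open flowers, buds and some very young siliques, from 4-week-old plants of the Col-0 ecotype. Wild-type plants (3 samples) were set against an rdr2 mutant in the same ecotype (3 samples). The titles of the mutant samples give no allele, the protocol names rdr2-1, and a genotype field reads rdr2-1, rdr2-2 and rdr2-3 for replicates 1 to 3; they were treated as 1 group. The design text calls the replicates biological, and the labels do not say which plants were pooled or which grew on sterile half-strength MS medium and which in a greenhouse. In such whole-organ samples a change in the number of cells of a type and a change in RNA per cell cannot be told apart. No marker of a floral organ, of anther, pollen, ovule, seed or leaf stood among these loci, so the tissue label was not checked on them.

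RDR2 is an RNA-dependent RNA polymerase that copies transcripts of RNA polymerase IV into double-stranded RNA, which Dicer enzymes cut into small interfering RNAs. Those small RNAs guide DNA methylation to transposons and repeats and keep many of them silent. Long noncoding RNAs of plants come from spans between genes or overlap a coding gene, often in antisense, and a few are precursors of small RNAs themselves. The question, from the title of the series, was which noncoding transcripts RDR2 regulates.

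Signals are given as scaled signal, the processed intensity divided by the array's 75th percentile, taken over probes that every array measured well above background, and multiplied by 100. The values are averaged over the probes of a locus on the log2 scale and listed in the order of replicates 1 to 3. A difference is the log2 scaled signal of the mutant minus that of the wild type. Per array, 87.6% to 88.4% of the 644 probes stood well above background in the wild type and 79.3% to 85.9% in the mutant, where replicates 1 and 2, from a shared slide, were the dimmest arrays. Wild-type replicates 1 and 2 also shared a slide. RDR2 itself had a scaled signal of 312, 319 and 338 on the wild-type arrays against 52.4, 48.2 and 50.1 on the mutant ones, and was 6.43-fold lower (limma adjusted p = 0.000157). Its level therefore went with the labels on all 6 arrays.

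Most of the annotated loci gave a signal in the inflorescence. At least 1 probe stood well above background on all 3 arrays of a group at 171 of the 184 loci (92.9%), against 35.2% of all names on the array. At 135 loci this held for every probe. The 13 loci that could not be tested were the protein-coding ILR2, MYB121, MYB79 and LAF1, the ncRNAs AT3G27884, AT3G52742, AT3G61118, AT4G16355, AT5G28824 and AT5G40275, and the lncRNAs AT3G20978, AT5G26146 and AT5G59662. Of these, AT3G52742, AT4G16355 and LAF1 had no probe well above background on any array. AT4G16355 is ELENA1, a noncoding RNA that promotes immune gene expression, and LAF1 is a MYB transcription factor of far-red light signalling. At 3 tested loci, AT3G19002, AT3G24542 and AT4G30872, no probe stood well above background on a mutant array, so the mutant level is only a bound there, and the bound gives no fold. In all, 15 of the tested loci passed through the wild type alone and 0 through the mutant alone, and 0 of these 15 were called. This count is by locus. Single probes of called loci, as at AT3G21781 and AT3G54625, did enter the test of probes through the wild type alone.

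Differences between mutant and wild type were small at most of the 171 tested loci. They ran from -1.35 to 1.22, lay within 0.5 of 0 at 136 loci and reached 1 in size at 7. The median was -0.21, beside -0.12 over all 1790 names tested, and 123 of the 171 loci lay below 0. With limma and Benjamini-Hochberg adjustment over all tested names, at an adjusted p under 0.05, 4 loci rose and 9 fell. The background was 38 rises (2.12%) and 40 falls (2.23%) among the 1790 names, while the shares among the loci were 2.34% and 5.26%. The balance of directions moved with the scaling. With the 75th percentile taken over all probes, dim ones included, the median of all tested names was 0.49, 65 of the 171 loci kept the sign of their difference, and 4 rose and 0 fell; the 9 falling loci then lay between -0.74 and -0.07. Median scaling gave 5 rises and 4 falls (2.34% falling, against 1.79% of all names), and quantile normalization 5 and 6 (3.51% falling, against 2.68%). With names whose probes are all bright, 29.6% of the loci and 25.2% of the names fell, and without wild-type replicate 3 the shares were 13.2% and 27.7%. Whether the loci fell more often than other names thus turned with the setting. All 3 mutant arrays lay above all 3 wild-type arrays at 17 of the 171 loci and below them at 70. Over all 1790 tested names this held at 186 (10.4%) and 276 (15.4%). The 2 sets differ in brightness, since every probe was bright at 135 of the 171 loci and at 584 of the 1790 names. Such separation was counted in the main scaling only, and not among bright names alone.

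**Figure D1:**
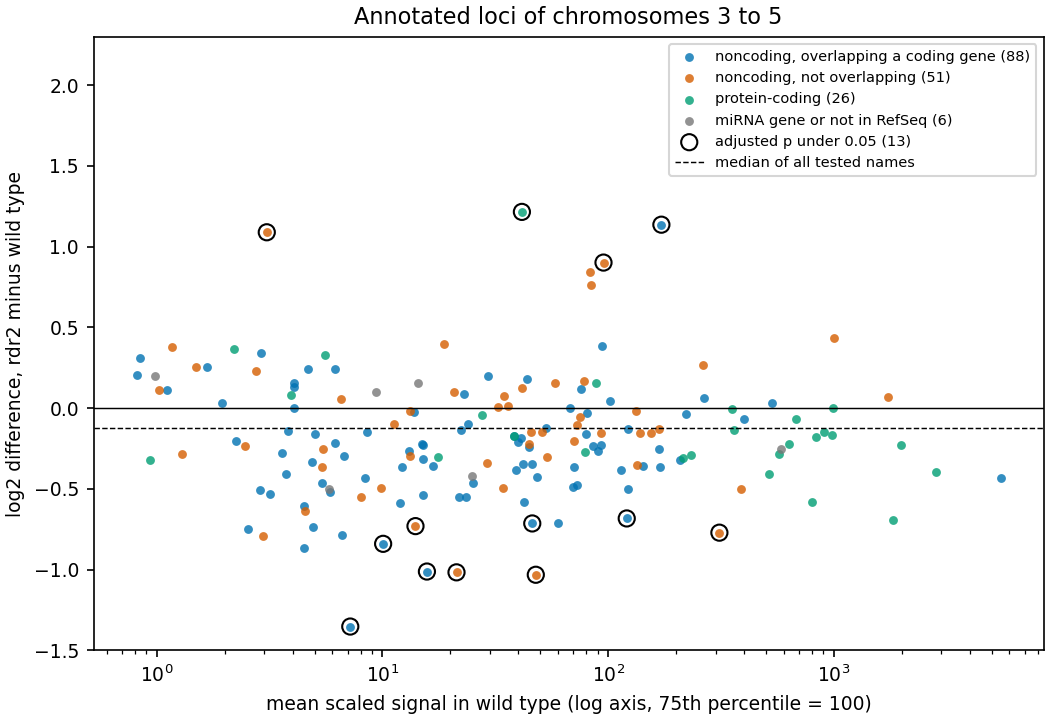
Each point is 1 of the 171 tested loci, placed by its mean scaled signal in the wild type (log axis) and its log2 difference, mutant minus wild type, with colours for RefSeq class and circles for an adjusted p under 0.05. The 13 circled loci lie between -1.35 and 1.22 and at wild-type signals from 3.07 to 311, with none among the 21 loci brighter than that, and most other points lie slightly below 0, near the dashed median of all tested names.

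These calls depended on how the shared slides were treated. With slide as a random block (within-slide correlation 0.816), 0 of the 171 loci passed, the smallest adjusted p being 0.0595, while 20 had an unadjusted p under 0.05. The background in that fit was 22 of 1790 names (1.23%). Each slide held arrays of 1 group, so the effect of a slide and that of the mutation can be separated only through the group's array on another slide. Single arrays also decided the counts: leaving out wild-type replicate 2 or mutant replicate 1 gave 0 rises and 0 falls, wild-type replicate 1 gave 2 and 0, mutant replicate 2 gave 1 and 0, mutant replicate 3 gave 3 and 2, and wild-type replicate 3 gave 6 and 23. Without replicate 3 of a group, that group is left with 2 arrays of 1 slide, so its spread is only that within a slide. No locus passed with normexp background correction, with all names tested or with the replicate number as a block. Of 19 alternatives (18 for AT3G18362), AT5G20820 was called in 12, and the 12 other called loci in 4 to 10 each.

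The spread between replicates followed the brightness of a locus. In the dimmest part of the tested loci, 57 with a mean scaled signal of at most 11.2, the median SD between replicates was 0.230 on the log2 scale. It was 0.111 in the middle 57 and 0.105 in the brightest 57, which started at 72.5. Of the 13 calls, 4, 5 and 4 fell in these groups in that order.

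The 4 loci that rose were 1 protein-coding gene and 3 noncoding RNAs. AT5G20820 encodes a SAUR-type protein, of a family of small proteins whose transcripts respond to auxin. Its scaled signal was 41.2, 40.5 and 42.7 on the wild-type arrays against 97.3, 93.8 and 97.8 on the mutant ones. The groups lay far apart and each was tight. The rise was 2.32-fold, with a log2 difference of 1.22 (SE 0.128, adjusted p = 0.00545), and all 3 probes were called higher on their own, at 1.15, 1.07 and 1.43. With slide as a random block its adjusted p was 0.0595.

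AT3G22121 is a lncRNA on chromosome 3 whose span overlaps CWLP, a gene for a cell wall-plasma membrane linker protein. Its scaled signal was 166, 155 and 195 on the wild-type arrays against 408, 418 and 313 on the mutant ones. Mutant replicate 3 was the lowest mutant array and still lay above every wild-type array. The locus rose 2.20-fold, from 172 ± 20.9 to 379.7 ± 57.7 (SD, n = 3 each), with a log2 difference of 1.14 (SE 0.185, adjusted p = 0.0288), and all 3 probes were called. No strand of the probes was used here, and whether signal from CWLP contributes was not tested.

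AT3G59765, an ncRNA on chromosome 3 that overlaps no coding gene in RefSeq, had a scaled signal of 97.4, 102 and 87.0 on the wild-type arrays against 176, 169.9 and 188 on the mutant ones. It rose 1.87-fold (log2 difference 0.90, SE 0.141, adjusted p = 0.024) and was called on all 3 probes. AT4G03811, an ncRNA on chromosome 4, was a dim locus, with 3.63, 2.92 and 2.66 on the wild-type arrays against 6.60, 6.71 and 6.13 on the mutant ones. It rose 2.13-fold (log2 difference 1.09, SE 0.17, adjusted p = 0.024), and 1 of its 3 probes was called on its own. In both loci the mutant arrays lay close together and above every wild-type array.

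All 9 loci that fell were noncoding. The largest difference was that of AT3G21781, a lncRNA overlapping UGT71B6, a gene for a glucosyltransferase that acts on abscisic acid. Its scaled signal was 9.42, 6.95 and 5.23 on the wild-type arrays against 2.88, 2.50 and 2.85 on the mutant ones. The wild-type arrays were more spread than the mutant ones but lay above them, and 2 of its probes did not stand well above background on at least 1 mutant array. Those 2 probes entered the test of probes through the wild type alone, so part of their mutant level is only a bound. The locus was 2.55-fold lower (log2 difference -1.35, SE 0.243, adjusted p = 0.0399), with all 3 probes called lower.

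AT3G14185, an ncRNA on chromosome 3 with no overlapping coding gene, had a scaled signal of 45.4, 45.9 and 52.1 on the wild-type arrays against 25.0, 24.0 and 21.2 on the mutant ones. It fell from 47.8 ± 3.73 to 23.4 ± 1.98 (SD, n = 3 each), a log2 difference of -1.03 (SE 0.148, adjusted p = 0.018), on 3 of 3 probes. AT5G20225, a lncRNA overlapping the protein-coding AT5G20220, had 17.0, 15.4 and 14.8 on the wild-type arrays against 7.31, 8.28 and 7.81 on the mutant ones. Its difference was -1.01 (SE 0.142, adjusted p = 0.0169), also on 3 of 3 probes, of which the first stood well above background on 1 of 3 mutant arrays, and every mutant array was below every wild-type array. AT3G18362, an ncRNA of chromosome 3, stood at 19.5, 19.9 and 24.5 on the wild-type arrays against 9.23, 10.8 and 11.5 on the mutant ones. Its difference was -1.02 (adjusted p = 0.0321), averaged over 3 probes. The 2 probes bright enough to test differed by -1.25 and -0.96 and were lowest on replicate 3 among the wild-type arrays. The first probe, at 1.66, 1.80 and 3.77 on the wild-type arrays, stood well above background on no mutant array and set the higher wild-type replicate 3.

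AT4G12917, an ncRNA of chromosome 4, had a scaled signal of 309, 299 and 325 on the wild-type arrays against 188, 165 and 194 on the mutant ones. Its probes agreed closely, at -0.75, -0.72 and -0.85, around a locus difference of -0.77 (SE 0.141, adjusted p = 0.0413). AT5G06865 is a lncRNA overlapping PGIP1, a gene for an inhibitor of fungal polygalacturonases. It was measured by 6 probes, all of them lower in the mutant and 4 called on their own, and had a scaled signal of 123, 124 and 116 on the wild-type arrays against 78.0, 76.8 and 71.1 on the mutant ones (difference -0.68, adjusted p = 0.0493).

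The remaining 3 falls were at dim to moderate loci. The lncRNA AT3G51075, whose span overlaps the protein-coding AT3G51070, had 47.3, 44.8 and 46.2 on the wild-type arrays against 28.3, 25.8 and 30.4 on the mutant ones, a difference of -0.71 with 1 of 3 probes called. AT3G54625, a lncRNA overlapping the coding gene AT3G54630, had 9.76, 11.2 and 9.22 on the wild-type arrays against 5.63, 5.98 and 5.23 on the mutant ones and a difference of -0.84 with 2 of 3 probes called; its last probe stood well above background on no mutant array, and with normexp the difference was 0.02. The ncRNA AT4G04315 had 14.2, 14.2 and 13.6 on the wild-type arrays against 8.94, 8.19 and 8.21 on the mutant ones and a difference of -0.73 with 1 probe called. Their adjusted p-values were 0.0493, 0.0399 and 0.0399. In all 13 called loci the groups of arrays did not overlap, and every tested probe of a locus lay on the same side of 0.

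**Figure D2:**
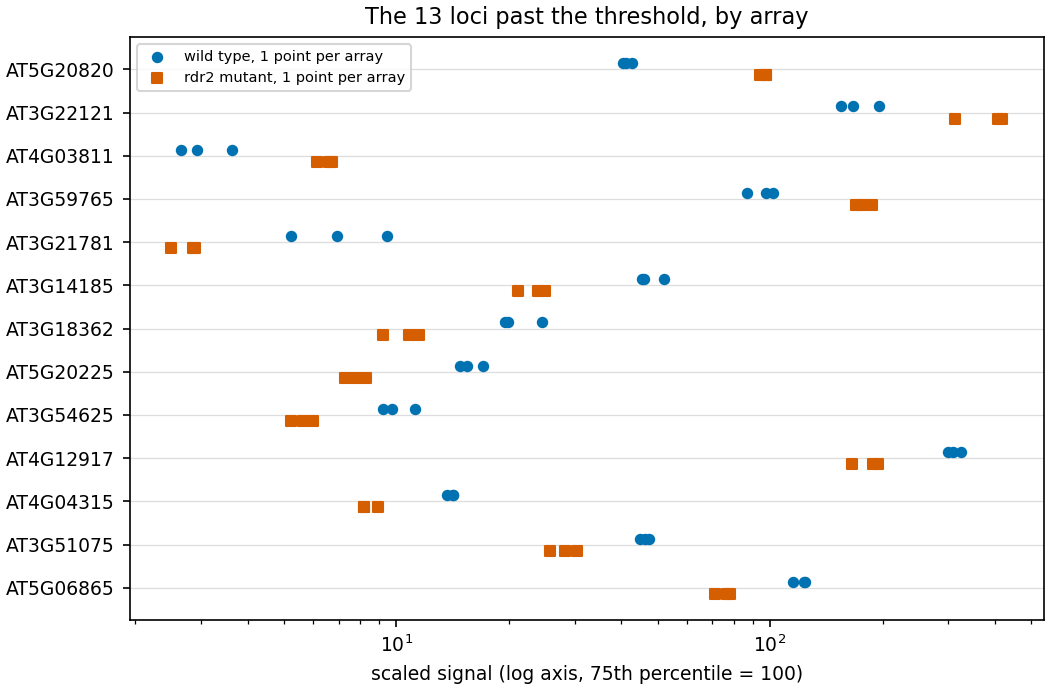
Scaled signal (log axis) of each called locus on each array, with circles for the 3 wild-type arrays and squares for the 3 mutant arrays. The 4 upper loci are higher in the mutant and the 9 lower ones are lower, with no overlap between the groups in any row, as at AT5G20820 with 40.5 to 42.7 against 93.8 to 97.8.

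Tested probe by probe, more loci had at least 1 probe called. Taking for each locus the probe with the smallest p, that probe was called higher at 7 loci (4.09%) and lower at 30 (17.5%), where the background was 5.98% and 10.7% of names. A probe was tested if it stood well above background on all 3 arrays of either group, and fewer probes of these loci did so on the mutant arrays. So a probe called lower may have entered through the wild type alone. The last probe of AT3G52748 did, being bright on 1 of 3 mutant arrays. How many of the 30 did so was not counted. A locus with more tested probes also had more chances here. The 171 loci had 548 tested probes and the 1790 names 3345, so these shares are not alike in the number of chances. No locus had probes called in opposite directions. Of 154 loci with several tested probes, 102 had them all on the same side of 0, and the median distance between the lowest and the highest probe was 0.322 on the log2 scale. At 9 loci this distance was over 1.

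The locus whose probes differed most was AT5G38005, an ncRNA of chromosome 5. A single probe had a scaled signal of 108, 106 and 116 on the wild-type arrays against 752, 695 and 379 on the mutant ones, a log2 difference of 2.41 (adjusted p = 0.00593). On that probe every mutant array lay above every wild-type array, while on the others the groups overlapped. The other probes had 56.3, 59.0 and 63.5 on the wild-type arrays against 58.8, 52.4 and 46.4 on the mutant ones and 96.0, 97.4 and 76.6 on the wild-type arrays against 79.4, 104 and 102 on the mutant ones, differences of -0.19 and 0.08. Averaged over probes, the locus stood at 0.77 (adjusted p = 0.0573) and missed the threshold. The place of each probe within the transcript was not known here.

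A like split was seen at AT5G01215, a lncRNA overlapping AT5G01210. On its first probe the scaled signal was 57.3, 79.7 and 58.4 on the wild-type arrays against 25.7, 27.6 and 27.1 on the mutant ones (difference -1.26, adjusted p = 0.00857), and a second probe gave -1.26, whereas its last probe lay at 0.14. At AT5G40348, a lncRNA overlapping the stamen gene MYB24, 1 of 6 probes fell, at -0.79 (adjusted p = 0.0166), and the other 5 lay between 0.11 and 0.30. AT4G06701, an ncRNA with 15 probes, had probe differences from -0.77 to 0.51 and none called. At each of these loci the average over probes missed the threshold.

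**Figure D3:**
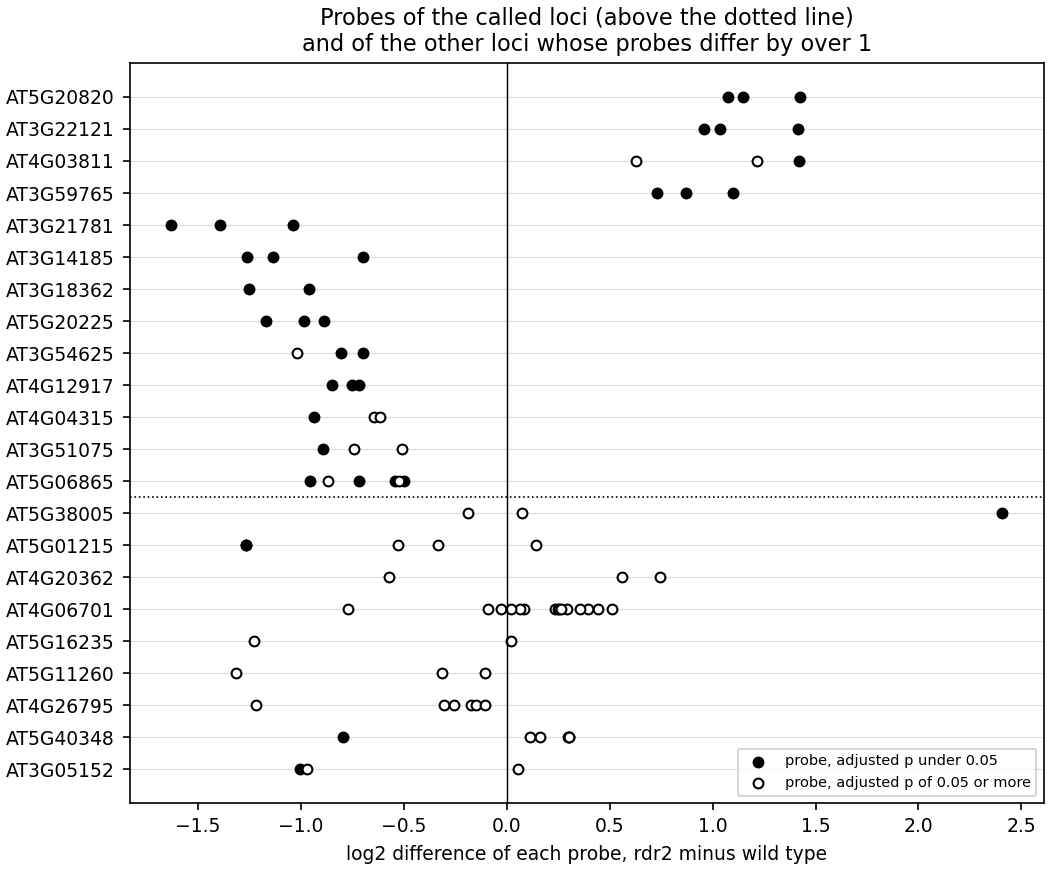
Log2 difference of each tested probe, mutant minus wild type, for the 13 called loci and, under the dotted line, for the 9 loci whose probes lay over 1 apart; filled points had an adjusted p under 0.05. Probes of a called locus stand together on 1 side of 0, whereas at AT5G38005 a single probe stands at 2.41 and the others near 0.

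Among noncoding RNAs with a known function, TAS4 (AT3G25795) was measured. TAS4 is the precursor of trans-acting small interfering RNAs that target MYB transcription factor mRNAs, and it is processed with another RNA-dependent RNA polymerase, RDR6. The first probe had a scaled signal of 7.78, 7.57 and 7.01 on the wild-type arrays against 4.03, 2.01 and 3.10 on the mutant ones, and the second 8.36, 8.04 and 6.33 on the wild-type arrays against 1.90, 2.75 and 3.06 on the mutant ones. On both, every mutant array lay below every wild-type array. The wild-type values stood well above background on 3 of 3 arrays, but the mutant ones on 2 of 3 for the first probe and 1 of 3 for the second, so the probes entered the test through the wild type and part of the mutant level is only a bound. The fitted differences were -1.34 (adjusted p = 0.0299) and -1.58 (adjusted p = 0.0111). The last probe stood well above background on no array, and with it the locus mean differed by -0.79 (adjusted p = 0.0629), which missed the threshold. Of 9 regulatory noncoding RNAs listed, TAS4 and ELENA1 were among the loci, 1 was tested and 0 were called.

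The noncoding loci differed in whether they overlap another gene. In RefSeq, 81 of the 83 lncRNAs overlapped a protein-coding gene, against 8 of the 64 ncRNAs. Of all 148 noncoding loci, 90 overlapped a coding gene, and 88 of these were tested: 1 rose, 5 fell, and the median difference was -0.26. Of the 58 that did not overlap, 51 were tested: 2 rose, 4 fell, and the median was -0.13, close to the -0.12 of all tested names. The mutant arrays lay below the wild-type arrays at 41 of the 88 and at 17 of the 51, and above them at 4 and 12. Over all tested names, 2.12% rose, 2.23% fell, 10.4% lay above and 15.4% below without overlap. A locus mean includes probes that did not stand well above background, and such probes can set its sign. AT4G31408, counted among the 12, differed by 0.38, while its only bright probe stood at -0.75. With the mean over bright probes alone, 161 of the 171 tested loci kept the sign of their difference. These are descriptions with no test of the difference between the classes. Whether signal from the overlapped genes contributes was not tested.

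**Figure D4:**
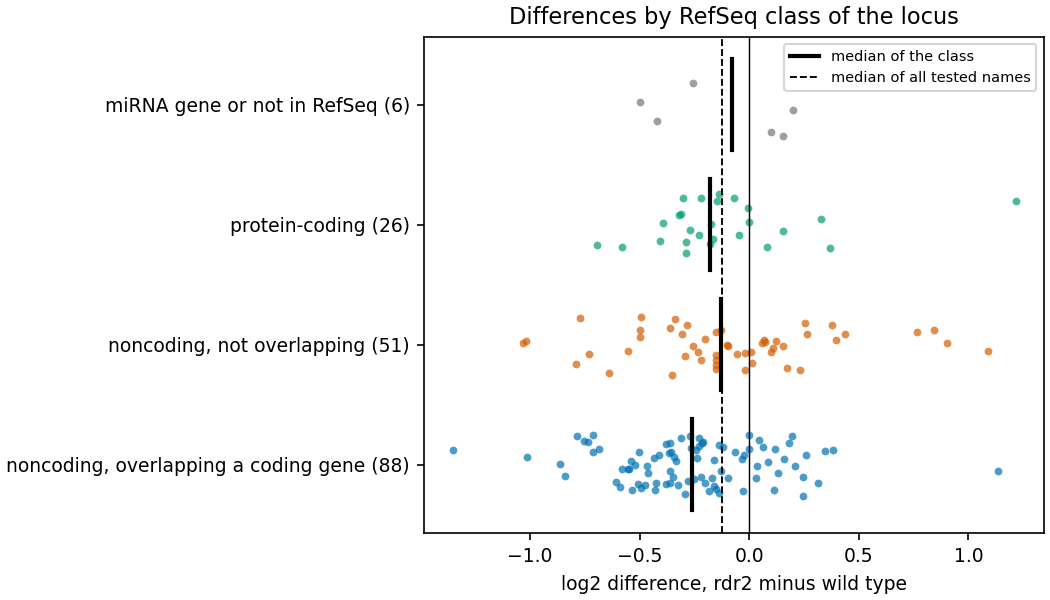
Log2 difference of each tested locus, mutant minus wild type, by RefSeq class, with a bar at the median of each class and a dashed line at the median of all tested names (-0.12). The 88 noncoding loci that overlap a coding gene centre at -0.26, the 51 that do not at -0.13 and the 26 coding loci at -0.18, and the 3 classes overlap widely.

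By chromosome, 2 loci rose and 5 fell of 63 tested on chromosome 3, 1 and 2 of 51 on chromosome 4, and 1 and 2 of 57 on chromosome 5, with median differences of -0.17, -0.23 and -0.22. Some loci lay near each other: 12 pairs stood at most 5 genes apart in RefSeq order. In 10 pairs both loci were tested, and no pair had both loci called. The falling AT3G21781 (-1.35) and AT3G21755 stood 4 genes apart, and AT3G21755 differed by -0.16 (95% interval -0.51 to 0.19). The adjacent ncRNAs AT5G24205 and AT5G24206 differed by -0.29 and -0.50, and the lncRNAs AT3G46658 and AT3G46668, each overlapping a glucosyltransferase gene of the UGT76E group, by -0.24 and -0.27, all short of the threshold.

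The 3 miRNA loci were those of MIR167a, MIR167b and MIR167c. Their product, miR167, acts on the auxin response factors ARF6 and ARF8, which are needed for flower maturation. MIR167a (AT3G22886) had a scaled signal of 16.2, 15.3 and 11.8 on the wild-type arrays against 15.2, 16.1 and 16.4 on the mutant ones, and its 3 probes agreed at 0.17, 0.14 and 0.16 around a locus difference of 0.15 (adjusted p = 0.673). Probes named for the precursor itself gave -0.28 (adjusted p = 0.688). MIR167b (AT3G63375), on 1 probe, had 29.0, 24.6 and 21.4 on the wild-type arrays against 20.8, 16.5 and 18.6 on the mutant ones, a difference of -0.42 (adjusted p = 0.293), beside -0.29 (adjusted p = 0.505) on probes named for the precursor. MIR167c (AT3G04765), also on 1 probe, had 6.68, 5.53 and 5.11 on the wild-type arrays against 6.25, 8.57 and 1.25 on the mutant ones, a difference of -0.50 (95% interval -2.27 to 1.27), with mutant replicate 3 far below the other arrays; the probe stood well above background on 2 of 3 mutant arrays. None of the 3 was called.

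Several noncoding loci overlap miRNA genes. AT4G13495, an ncRNA whose span holds MIR5026, MIR850 and MIR863, had a scaled signal of 45.0, 41.5 and 37.8 on the wild-type arrays against 45.0, 44.6 and 45.6 on the mutant ones, a difference of 0.12 (adjusted p = 0.676). AT4G30975 overlaps MIR156b and differed by -0.14 (95% interval -0.46 to 0.18), with 1 of its 3 probes well above background on no array. Probes named for MIR850 and MIR156b stood at -0.30 and -0.29, adjusted p = 0.746 and 0.766. AT4G03038, which overlaps the MIR826a and MIR826b genes, had 25.2, 24.2 and 25.8 on the wild-type arrays against 17.9, 17.2 and 19.6 on the mutant ones and differed by -0.46 (adjusted p = 0.133). Its groups did not overlap, and 1 of its 3 probes was called lower.

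Of the 30 protein-coding loci, 26 were tested, 1 rose (the SAUR-type gene above) and 0 fell. Their median difference was -0.18. The set holds genes of light and clock signalling, of abscisic acid and auxin responses, of RNA metabolism and of tryptophan synthesis, and several MYB and other transcription factors.

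The 5 tested genes placed here under light and clock signalling lay below the wild type on every mutant array, at differences from -0.58 to -0.18, and none passed the threshold. Over all tested names such a separation was found in 15.4%, and over these loci in 70 of 171. The genes were grouped by role and not by a list of their own. Whether genes placed in other groups, such as the transcription factors below, also act in light or clock signalling was not checked. With the 75th percentile over all probes these values turned to 0.03 to 0.43, still below the median of all names in that scaling. HY5, a bZIP factor that promotes light responses, had a scaled signal of 751, 846 and 806 on the wild-type arrays against 529, 649 and 448 on the mutant ones (difference -0.58, adjusted p = 0.16). Its probes were uneven, the last at 405, 530.4 and 481 on the wild-type arrays against 192, 382 and 91.6 on the mutant ones, whose mutant arrays were far apart. The other HY5 probes stood at -0.11 and -0.32. PRR5, an evening repressor of the circadian clock, had 566, 575 and 583 on the wild-type arrays against 451, 457 and 506 on the mutant ones (difference -0.29), and TOC1, a clock repressor of the same family, 655, 618 and 624 on the wild-type arrays against 559, 506 and 566 on the mutant ones (difference -0.22, adjusted p = 0.451). PIL6, a bHLH factor that binds phytochrome, had 821, 841 and 832 on the wild-type arrays against 708, 713 and 783 on the mutant ones (difference -0.18), and FHL, which takes phytochrome A into the nucleus, 81.7, 85.9 and 70.6 on the wild-type arrays against 65.5, 66.0 and 65.2 on the mutant ones (difference -0.27). For all but HY5 the 95% interval reached past 0, as for TOC1 (-0.55 to 0.11).

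Genes of abscisic acid signalling were not called. ABI1 and ABI2, protein phosphatases that hold the pathway off, had scaled signals of 1960.3, 2022 and 1944 on the wild-type arrays against 1538, 1541 and 2024 on the mutant ones for ABI1 and 335, 314 and 407 on the wild-type arrays against 348, 329 and 369.7 on the mutant ones for ABI2. Their differences were -0.23 (95% interval -0.63 to 0.18) and -0.01 (-0.40 to 0.39), and the groups overlapped in both. LTI65, which abscisic acid induces, was dim, at 5.22, 5.44 and 5.95 on the wild-type arrays against 7.54, 8.58 and 5.17 on the mutant ones (difference 0.33, adjusted p = 0.495), with mutant replicates 1 and 2 above and replicate 3 just below the wild-type arrays, and its tested probes at 0.04 and 0.59. ADC2, an arginine decarboxylase of polyamine synthesis, had 2624, 3323 and 2585 on the wild-type arrays against 2171, 1969 and 2324 on the mutant ones (difference -0.39, adjusted p = 0.293), with no overlap. STRS2, a DEAD-box RNA helicase of stress responses, differed by -0.14 (adjusted p = 0.627). Of the listed stress and hormone response genes, 3 were among these loci (ABI1, HY5 and TOC1), and 0 were called.

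Of the other auxin genes, TIR1, an auxin receptor, had a dim signal of 3.98, 4.08 and 3.77 on the wild-type arrays against 3.91, 4.52 and 4.13 on the mutant ones (difference 0.08, 95% interval -0.26 to 0.42), and IAA30, a repressor of auxin responses, had 16.5, 16.4 and 20.2 on the wild-type arrays against 15.6, 15.0 and 12.5 on the mutant ones (difference -0.30, adjusted p = 0.416). With AT5G20820, 1 of the 2 listed auxin-responsive genes measured here rose and 0 fell.

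DRB4, a double-stranded RNA-binding partner of the Dicer DCL4, had a scaled signal of 502, 498 and 553 on the wild-type arrays against 443, 417 and 323 on the mutant ones (difference -0.41, adjusted p = 0.296). Its mutant arrays lay below the wild-type ones, and its probes were uneven, at -0.03, -0.73 and -0.45, with 1 of the 3 called lower. On the second probe mutant replicate 3 stood apart. That probe had 393, 386 and 463 on the wild-type arrays against 387, 340 and 116.5 on the mutant ones (SE of the difference 0.476). NRPB1, the largest subunit of RNA polymerase II, had 656, 647 and 746 on the wild-type arrays against 689, 638 and 623 on the mutant ones and differed by -0.07 (95% interval -0.41 to 0.28). HOG1, a hydrolase that clears the by-product of methylation reactions, had 928, 1018 and 991 on the wild-type arrays against 963, 934 and 740.3 on the mutant ones and differed by -0.16 (95% interval -0.56 to 0.23). The groups overlapped in NRPB1 and in HOG1.

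TSB1 and TSB2 encode the beta subunit of tryptophan synthase and are close in sequence, so a probe may read both, which was not tested. TSB1 had 1502, 1970.2 and 2033 on the wild-type arrays against 1525, 1480.5 and 628 on the mutant ones, a difference of -0.70 (adjusted p = 0.403). A single value stood apart, that of the first TSB1 probe on mutant replicate 3: the probe had 904, 1355 and 1844 on the wild-type arrays against 1479, 1356 and 78.5 on the mutant ones. The other TSB1 probes differed by -0.36 and -0.44, and TSB2, with 226, 228 and 243 on the wild-type arrays against 206, 201 and 166 on the mutant ones, by -0.29 (adjusted p = 0.385).

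Among the transcription factors, the NAC gene NAC080 had 216, 219 and 206 on the wild-type arrays against 161, 164 and 193 on the mutant ones (difference -0.31, adjusted p = 0.324) with no overlap between groups. TCP11, of the TCP family, differed by -0.15, MYB107 by -0.17 and MYB45 by -0.05, all with overlapping groups. The homeobox gene HB40 averaged 2.79, 2.05 and 1.78 on the wild-type arrays against 2.99, 2.46 and 2.97 on the mutant ones over its 3 probes (difference 0.37, adjusted p = 0.433). Only 1 of these probes was bright, at 22.7, 20.5 and 25.0 on the wild-type arrays against 22.7, 22.3 and 21.4 on the mutant ones (difference -0.04, adjusted p = 0.859). The other HB40 probes stood well above background on no array, so the sign of the locus mean came from probes without clear signal. MYB121 and MYB79 were too dim to test.

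**Figure D5:**
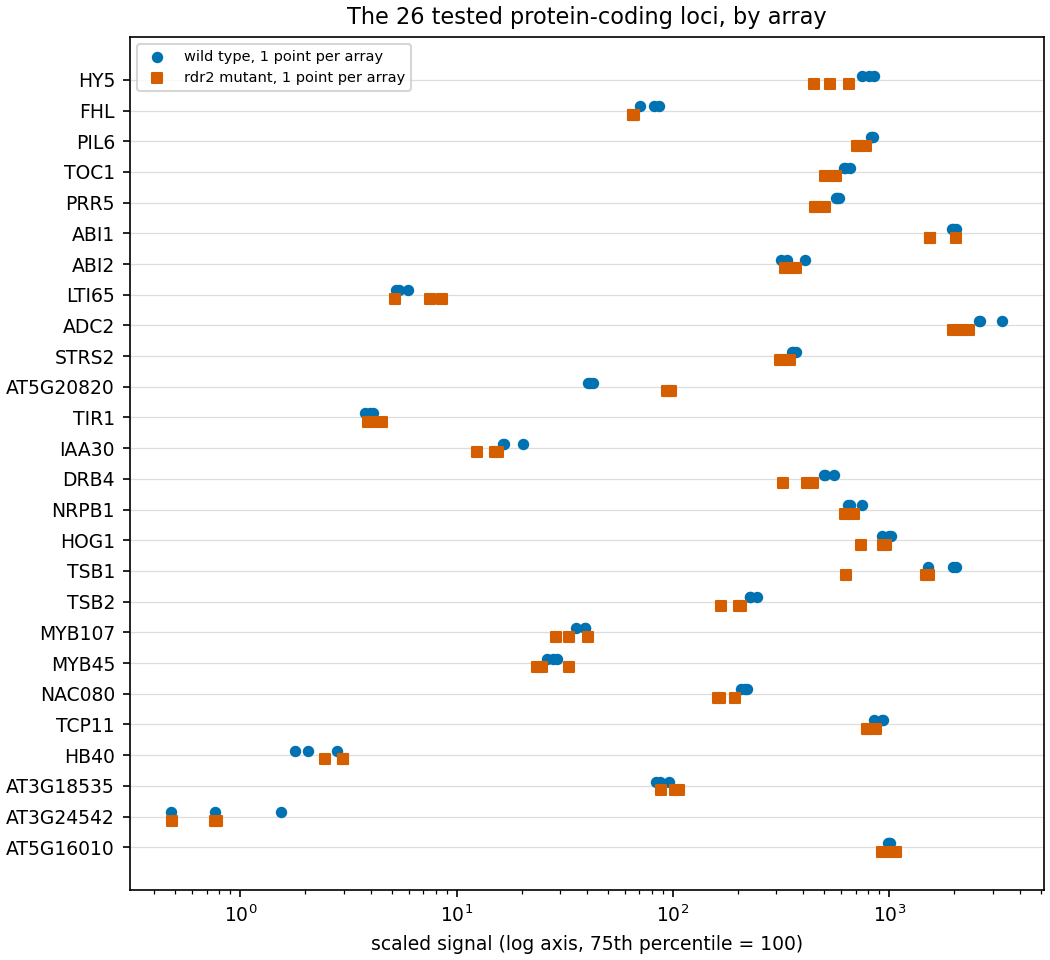
Scaled signal (log axis) of the 26 tested protein-coding loci on each array, grouped by role from light and clock genes at the top, with circles for the 3 wild-type and squares for the 3 mutant arrays. AT5G20820 is the gene whose groups stand furthest apart, the light and clock genes lie slightly lower in the mutant in this scaling, and at TSB1 and HY5 the mutant arrays are spread.

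Bright loci with small differences were also present. AT5G24735, an ncRNA of chromosome 5, had a scaled signal of 1636, 1695 and 1896 on the wild-type arrays against 1890.2, 1684 and 1894 on the mutant ones (difference 0.07, 95% interval -0.29 to 0.42). The protein-coding AT5G16010 had 1004, 985 and 994 on the wild-type arrays against 997, 922 and 1069.9 on the mutant ones (difference 0.00, 95% interval -0.33 to 0.33), and its 3 probes lay at 0.00, 0.01 and -0.01. By contrast AT4G04077, a bright lncRNA overlapping the coding gene AT4G04078, had 5379, 5715 and 5353 on the wild-type arrays against 4201, 3858 and 4154 on the mutant ones, lower on every mutant array, with a difference of -0.43 (adjusted p = 0.147) and 1 of 3 probes called.

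Other loci that missed the threshold had groups that did not overlap. The ncRNA AT4G14548 went from 83.4 ± 16.0 to 148 ± 16.2 (SD, n = 3 each) and differed by 0.84 (adjusted p = 0.0755). The ncRNA AT3G12965 had 972, 925 and 1097 on the wild-type arrays against 1418, 1504 and 1146 on the mutant ones and differed by 0.44 (adjusted p = 0.248), and 1 of 3 probes was called higher in each of the 2 loci. AT4G31248, a lncRNA overlapping AT4G31250, had 41.4, 43.8 and 42.2 on the wild-type arrays against 26.7, 27.1 and 31.5 on the mutant ones (difference -0.58, adjusted p = 0.082). AT5G36002, a lncRNA on 6 probes, had 53.6, 53.7 and 72.7 on the wild-type arrays against 35.9, 33.7 and 39.3 on the mutant ones (difference -0.71, adjusted p = 0.0923), with 2 probes called lower. AT5G60022, overlapping the laccase gene LAC17, had 5.71, 6.08 and 5.85 on the wild-type arrays against 4.08, 3.84 and 4.38 on the mutant ones (difference -0.52, adjusted p = 0.0976).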

How the data were processed

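RNA (0.5 µg per array, Cy3-labelled) was hybridised to custom one-colour Agilent arrays with 15013 probes besides 536 control spots. Per the file headers, the authors extracted the images with Feature Extraction version 10.5.1.1, except that mutant replicate 3 was read with 10.7.3.1. The deposited scanner output gives an intensity per spot (the processed signal) from which background was subtracted with spatial detrending, beside unprocessed medians of spot and background. The deposited value table holds log2 values, with scale and normalization not stated. They matched quantile-normalized log2 processed signals (minimum 1) within 0.1 at no less than 99.86% of the probes on each array, and the column medians were 0.949 to 0.950.

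The main values were log2 processed signals (minimum 1), scaled to the 75th percentile of the 2369 probes that every array measured well above background and averaged over all probes of a name, transcript versions merged. The 1790 names with at least 1 probe well above background on all 3 arrays of a group entered the test, lmFit and eBayes of limma 3.58.1 (R 4.3.3) with group as the only term and Benjamini-Hochberg adjustment. The procedure was run on simulated data with independent noise on each array, which leaves out the correlation within slides. Its error rate under that correlation was not tested. Slides came from the array barcodes, and the p-values measure the spread between these arrays. The number of arrays limits the precision. Alternatives changed the scaling, the normalization, the background correction, the filter, the summary over probes, the slide, the pairing, the threshold and each left-out array. The files hold no mean spot signal, so normexp used the median one. No probe sequence was used here. Figures were drawn with matplotlib 3.10.9.

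Named genes were the called loci with no overlap between groups (at most 12 per direction), the listed regulatory noncoding RNAs, up to 4 called genes of each other list, or its 2 of smallest p, and 2 bright loci with a difference within 0.2. Others were named as whole classes (coding, miRNA or untested loci) or after their values were seen. The lists covered regulatory noncoding RNAs, small-RNA genes, floral identity, anther, pollen, seed, leaf, stress and hormone, auxin and housekeeping genes; the lists without results in the text held 0 of these loci. The loci and lists were chosen with earlier results of these data known.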

Additional observations from a re-analysis of the deposited data

How the results depend on the processing

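Counts are the loci that rose and that fell, against 4 and 9 (all names 38 and 40) in the main values. They were 4 and 0 (all names 57 and 7) when all probes set the 75th percentile, 5 and 4 (all names 63 and 32) with median scaling, 5 and 6 (all names 72 and 48) with quantile normalization, 5 and 5 (all names 71 and 46) in the deposited table and 0 and 0 (all names 9 and 5) with normexp, whose offset of 50 is added before arrays of unequal brightness are scaled. They were 0 and 0 (all names 15 and 11) with no filter, 10 and 40 (all names 69 and 147) with names whose probes are all bright, 5 and 10 (all names 64 and 98) with the mean over bright probes, 7 and 30 (all names 107 and 191) by best probe and 8 and 32 (all names 77 and 146) with dim values raised to a common floor. They were 0 and 0 (all names 14 and 8) with slide as a random block, 0 and 0 (all names 9 and 4) with slide mates averaged and 1 and 0 (all names 18 and 14) at a threshold of 0.01. With the replicate number as a block they were 0 and 0 (all names 16 and 11). Same-numbered arrays deviated together at r of -0.02, -0.02 and 0.05, and not every array correlated best with its own number, so the numbers were not read as pairs.

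Where 0 loci passed, limma gave an unadjusted p under 0.05 at 10 loci with normexp, 22 with no filter, 20 and 15 with slide as a block or averaged, and 34 with the replicate block. Leaving out 1 array gave 0 to 6 rises and 0 to 23 falls (all names 16 to 75 and 11 to 783). The counts were 2 and 0 (all names 25 and 16), 0 and 0 (all names 17 and 11) and 6 and 23 (all names 75 and 783) without wild-type replicates 1 to 3 in turn, and 0 and 0 (all names 16 and 11), 1 and 0 (all names 16 and 12) and 3 and 2 (all names 41 and 33) without mutant replicates 1 to 3. Of the 13 called loci, 13 kept their calls with the common floor, the mean over bright probes, the best probe and without wild-type replicate 3, 9 with quantile normalization, 8 with median scaling and 4 (the rises) with the 75th percentile over all probes, which moved the median of all names to 0.49. The fit without wild-type replicate 3 leaves 2 wild-type arrays of 1 slide, so calls kept there do not show that they hold across slides. AT3G54625 turned to 0.0167 with normexp, and AT5G40348 to -0.79 by its best probe. The cause of each other shift was not tested. Low signal limits the dim loci, whose replicates spread most.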
